A study of Rattus norvegicus with 40 samples.

Results

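The genes described here encode the machinery that copies DNA in S phase, and 49 were listed for this purpose by name. A gene entered when a probe set (a group of short oligonucleotides against a transcript) carried its symbol alone in the platform annotation, and the probe set with the highest mean over all arrays stood for the gene. Of the 49 genes, 44 were measured this way, out of 14217 genes in all. Cdc6, Cdc7, Dbf4, Gins2 and Rrm2 were not measured by this rule. The samples came from embryos of Wistar rats and were whole intestine and lung taken on gestational day 16 (E16) or 20 (E20), in 4 groups of 10 Affymetrix arrays: intestine E16, intestine E20, lung E16 and lung E20. The labels name no treatment and no altered gene. The title puts the question as one of changes that ready both organs for birth. Per the labels, tissue of more than 1 sibling was frozen, and the series text counts 10 embryos at each age, so whether each array stands for 1 embryo is not settled, and p-values here measure the spread among these samples, which may be technical. If the arrays of an age share litters, age and litter cannot be told apart. Intestine RNA was labelled from 1 µg and lung RNA from 2 µg, so organ and RNA amount cannot be told apart in any comparison between organs.

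Copying of a chromosome starts where the origin recognition complex, with Cdc6 and Cdt1, loads the ring-shaped MCM helicase onto DNA before S phase. Cyclin E with its kinase, Cdc7 with Dbf4, Mcm10, Cdc45 and the GINS complex then turn the loaded ring into an active helicase, and polymerases, primase, the sliding clamp Pcna with its loader RFC, the single-strand binding protein RPA, the flap nuclease Fen1 and DNA ligase 1 work at the fork. Many of these genes are transcribed in dividing cells under E2F transcription factors, and their RNA is scarce in cells that have left the cycle. In the fetal lung and gut, late gestation is when dividing progenitors give way to differentiated epithelium and mesenchyme.

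Levels are log2 intensities, on which a difference of 1 is a 2-fold change, and no detection calls were used. Called genes are those with at least a 2-fold change and an adjusted p under 0.05 (Benjamini-Hochberg, over all 14217 genes). Array medians ran from 220 to 264 intensity units. The organs carried their own markers: Nkx2-1, the lung endoderm factor, had a median of 9.74 in lung and 6.67 in intestine at E16, and Vil1, the microvillus protein villin, reached 13.26 in intestine at E20 against 7.35 in lung. Intestinal markers were still low in intestine at E16, where Cdx2, the intestinal homeobox factor, had a median of 7.84. Some lung E20 and intestine arrays held more liver, pancreas or mesothelium transcripts than the rest, and results without 7 of them are given beside the counts they touch. In lung E16, replicates 5 and 9 held more cardiac muscle transcripts, with medians of 12.09 and 12.75 over 7 markers against 7.15 to 9.28 in the other 8 arrays. Their medians over the replication genes were 10.49 and 10.41, against 10.42 to 10.61. Of the 44 genes, 43 had a mean above the median of all log2 values (7.89), and the exception was Orc1.

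DNA replication genes were lower at E20 than at E16 in both organs, by more in lung. In lung, 32 of the 44 were called lower, against a background of 4.63% of all genes, and 1 was called higher (background 7.15%). In intestine, 2 were called lower (background 6.26%) and 0 higher (background 8.79%). With the adjusted p alone and no fold minimum, limma placed 41 genes lower and 2 higher in each organ. The backgrounds for this rule were 33.7% lower and 33.0% higher in lung and 41.9% lower and 29.5% higher in intestine. The unadjusted p under 0.05 gave the same counts. The median change of the 44 genes was -1.15 in lung, where that of all genes was -0.0064, and -0.55 in intestine, where that of all genes was -0.086. In lung, the highest E20 array lay below the lowest E16 array for 40 genes (background 15.9%), and for 2 the reverse held (background 15.2%). In intestine the E20 arrays lay wholly below the E16 arrays for 33 genes (background 20.3%) and wholly above for 0 (background 17.3%). In lung, 9 of the 44 changes lay between -0.9 and -1.1, close to the fold minimum, so the count of 32 turns partly on where that minimum is set. Without the 7 arrays named above, 35 genes were called lower in lung and 2 in intestine. Without lung E16 replicates 5 and 9, left out after the data were seen, 34 were called lower and 1 higher in lung.

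In whole organs, fewer cycling cells and less of these RNAs per cell cannot be told apart. Markers of several other cell types differed between the ages. Of all genes, 6.26% were called lower and 8.79% higher in intestine, and 4.63% and 7.15% in lung. Red cell precursors divide as they mature. Of 11 erythroid markers, 9 were called lower in intestine (median change -3.06) and 6 in lung (median change -1.14). Across arrays their median level ran from 11.01 to 12.51 in intestine E16, 7.77 to 8.72 in intestine E20, 11.46 to 11.97 in lung E16 and 8.51 to 10.14 in lung E20. All 7 markers of white blood cells and macrophages had estimates above 0 in both organs, with 3 called higher in each. Of 5 markers of mesothelium, the lining of the body cavity, 3 were called lower and 1 higher in intestine (median change -1.43), and 2 lower and 1 higher in lung (median change -0.50). The mesothelium median ran from 10.02 to 10.61 over intestine E16 arrays and from 7.83 to 9.01 at E20. Of 9 exocrine pancreas markers, 3 were called lower in intestine (median change -0.45) and 0 in lung. In intestine E16, replicates 6, 8 and 9 had pancreas medians of 7.95, 7.96 and 8.26, and no other array there exceeded 6.80. These replicates are among the arrays with other tissue, and how far the pancreas difference rests on them was not tested. Of 11 liver markers, 4 were called higher in intestine (median change 0.66) and 2 lower in lung (median change -0.45). Whether each list follows only the cell type it is named for was not tested. The part of these cell types in the replication result was not tested.

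**Figure D1:**
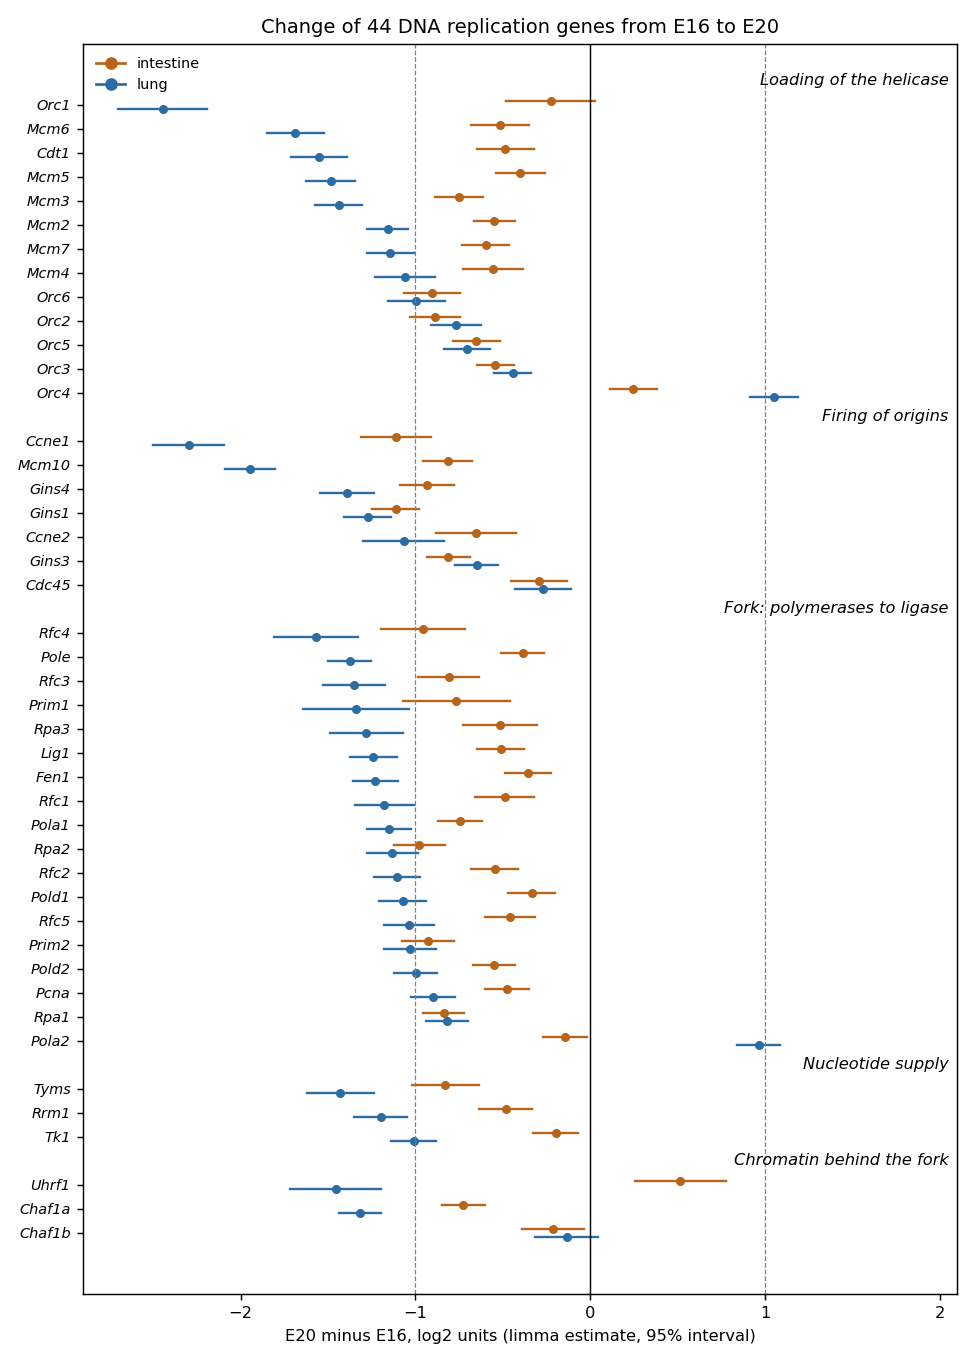
Change from E16 to E20 of each of the 44 genes, in log2 units with its 95% interval, in intestine (brown) and lung (blue), grouped by role. Dashed lines mark a 2-fold change. Most lung points lie near or left of the lower dashed line, most intestine points between that line and 0, and Orc4 and Pola2 lie to the right in lung, Orc4 and Uhrf1 in intestine.

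Promoters are shown first, because these genes moved together and E2F sites are a known feature of replication promoters. Windows from 250 bases before to 50 bases after the transcript start, from RefSeq on the rat GRCr8 assembly, were found for 38 of the 44 genes. Rpa3, Ccne2, Gins4, Orc4, Mcm4 and Orc1 had no entry. Any of 4 spellings of the E2F site (TTTCCCGC, TTTGGCGC, TTTCGCGC and TTTGCCGC, read on both strands, where neighbouring matches can overlap) stood in the windows of 17 of the 38 genes (44.7%), against 2.95% of the 19005 genes in the table and 2.74% of its 21851 windows. CCAAT, the NF-Y box, was present in 22 of 38 (57.9%, against 39.8% of all genes). TTTGAA, the core of the element bound by the DREAM complex in mitotic promoters, was present in 2 of 38 (5.26%, against 18.1%). Genes with an E2F spelling had a median lung change of -1.27 (14 of 17 called lower) and a median intestine change of -0.60. Genes with a window but without one had a median lung change of -1.04 (13 of 21 called) and an intestine change of -0.55. A match is a description of the letters and not a test of binding.

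The 250 bases upstream of the start are printed for 4 genes that the values below turn on, with E2F spellings in capitals: Mcm6 and Mcm5, of which the lung change exceeded the intestine change, Gins1, which was called in both organs, and Uhrf1, which went opposite ways. In the first 3, a forward match and a match on the other strand overlap and read as a single run.
Mcm6 (chr13:42404353-42404602, minus strand, GRCr8): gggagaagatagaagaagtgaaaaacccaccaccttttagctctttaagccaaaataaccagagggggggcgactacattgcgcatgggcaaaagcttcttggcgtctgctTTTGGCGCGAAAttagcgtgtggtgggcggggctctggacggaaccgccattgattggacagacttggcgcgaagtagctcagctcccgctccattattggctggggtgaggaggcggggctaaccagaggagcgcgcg
Mcm5 (chr19:13488563-13488812, plus strand, GRCr8): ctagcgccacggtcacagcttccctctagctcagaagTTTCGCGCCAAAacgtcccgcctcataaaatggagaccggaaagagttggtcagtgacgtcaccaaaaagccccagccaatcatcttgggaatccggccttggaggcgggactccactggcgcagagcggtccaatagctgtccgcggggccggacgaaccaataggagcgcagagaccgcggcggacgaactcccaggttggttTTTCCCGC
Gins1 (chr3:160184670-160184919, plus strand, GRCr8): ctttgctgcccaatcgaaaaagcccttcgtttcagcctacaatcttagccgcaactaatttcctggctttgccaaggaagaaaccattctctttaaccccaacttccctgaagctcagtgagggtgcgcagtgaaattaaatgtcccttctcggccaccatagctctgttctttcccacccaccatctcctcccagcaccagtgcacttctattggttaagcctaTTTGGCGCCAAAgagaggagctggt
Uhrf1 (chr9:1222936-1223185, plus strand, GRCr8, 1 of 3 windows listed): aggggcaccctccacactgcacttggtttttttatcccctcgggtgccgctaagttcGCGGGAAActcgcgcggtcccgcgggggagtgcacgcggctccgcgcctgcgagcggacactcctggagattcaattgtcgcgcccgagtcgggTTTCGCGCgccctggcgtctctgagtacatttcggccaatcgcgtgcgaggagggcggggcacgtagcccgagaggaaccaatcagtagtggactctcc
The matches begin 139 and 135 bases before the start in Mcm6, 213, 209 and 8 in Mcm5, 25 and 21 in Gins1, and 193 and 99 in Uhrf1. Only windows that hold an E2F spelling were printed, so its presence in these 4 genes was fixed by the choice. Ccne1 and Mcm10, also described below, had a window without one.

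Genes that load the helicase comprised 13 measured members, of which 8 were called lower in lung and 1 higher, while 0 were called in intestine. Backgrounds were 4.63% lower and 7.15% higher in lung, and 6.26% and 8.79% in intestine. In role groups this small, a count of 0 or 1 cannot be told from those shares. All 6 MCM subunits, Cdt1 and Orc1 were called lower in lung. Orc1, the largest subunit of the origin recognition complex and the one whose supply varies with the cell cycle, ranged in lung from 8.10 to 8.52 (median 8.27) at E16 and from 5.18 to 6.63 (median 5.93) at E20. Its intestine levels were 7.01 to 7.80 (median 7.29) at E16 and 6.79 to 7.51 (median 7.08) at E20. Lung arrays at E16 were thus above, and lung arrays at E20 below, every intestine array. In lung Orc1 was lower at E20 (log2 difference -2.45, SE 0.13, adjusted p = 1.45e-20). Its lung E20 level was not shown to exceed background: the medians of 7 intestinal epithelium markers (5.69 to 6.23) and 9 exocrine pancreas markers (5.83 to 6.25) on the same arrays lay in its range, so no fold is given. The intestine difference was -0.23 (95% interval -0.48 to 0.03, adjusted p = 0.104), which did not pass. Orc1 was dim (below the median of all log2 values) in every array of all groups but lung E16.

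Mcm6, a helicase subunit, ranged in lung from 11.55 to 11.84 (median 11.70) at E16 and from 9.64 to 10.42 (median 10.01) at E20, and in intestine from 11.23 to 11.67 (median 11.43) and from 10.64 to 11.32 (median 10.94). The lung ages were apart, and the intestine ages overlapped. Mcm6 was 3.22-fold lower in lung (log2 -1.69, SE 0.081, adjusted p = 1.74e-21) and 1.43-fold lower in intestine (log2 -0.52, adjusted p = 3.79e-07). Mcm5, another subunit of the ring, ranged from 10.82 to 11.06 (median 11.01) in lung E16, 9.23 to 9.92 (median 9.44) in lung E20, 10.47 to 10.80 (median 10.60) in intestine E16 and 9.98 to 10.47 (median 10.22) in intestine E20. No lung array overlapped an intestine array of the same age, being above at E16 and below at E20. The lung change was -1.49 (SE 0.069, adjusted p = 5.08e-22) and the intestine change -0.40 (SE 0.069, adjusted p = 2.22e-06). Changes of the other MCM subunits in lung were -1.16 for Mcm2, -1.44 for Mcm3, -1.06 for Mcm4 and -1.14 for Mcm7, all called, and their intestine changes ran from -0.55 to -0.75, none called.

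Cdt1, the loading factor that is destroyed once S phase begins, ranged in lung from 10.54 to 10.98 (median 10.70) at E16 and from 8.82 to 9.71 (median 9.13) at E20, and in intestine from 10.45 to 10.62 (median 10.54) and from 9.84 to 10.25 (median 10.09). Neither organ's ages overlapped. The fall was 2.93-fold in lung (log2 -1.55, SE 0.080, adjusted p = 1.87e-20) and 1.40-fold in intestine (log2 -0.49, adjusted p = 9.91e-07). The remaining subunits of the origin complex changed in lung as follows on the probe sets used: Orc2 by -0.77, Orc3 by -0.45, Orc5 by -0.71 and Orc6 by -0.995, all past the adjusted p and short of 2-fold. Orc6 was called at -1.47 with its probe sets averaged. Their intestine changes were -0.89, -0.54, -0.65 and -0.91 in the same order. On these probe sets no member of this set of 4 passed the test of a difference between organs, and the intervals of that difference lay within -0.32 and 0.33. With probe sets averaged, the Orc6 difference was -0.76 and passed (limma adjusted p = 4.72e-07).

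Orc4, also of the origin complex, had the opposite sign. Its lung arrays ranged from 9.38 to 9.69 (median 9.48) at E16 and from 10.13 to 10.83 (median 10.64) at E20, without overlap, and its intestine arrays from 9.29 to 9.65 (median 9.49) and from 9.63 to 9.85 (median 9.72). The lung rise was 2.07-fold (log2 1.05, SE 0.067, adjusted p = 1.25e-17) and the intestine rise 1.19-fold (log2 0.25, adjusted p = 0.0012). This sign depends on the probe set: the gene's other one, with a mean of 9.81 against 9.82 for the one used, fell by 0.61 in lung (adjusted p = 2.59e-06 over all probe sets) and by 0.33 in intestine (adjusted p = 0.00491). With both averaged the lung change was 0.22, and with arrays centred on their medians it was 0.97, neither called. The direction for Orc4 is therefore not settled by these arrays.

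Firing of origins was represented by 7 genes, with 5 called lower in lung (background 4.63%) and 2 in intestine (background 6.26%). Ccne1, cyclin E1, the partner of the kinase that starts S phase, ranged in lung from 10.88 to 11.15 (median 10.98) at E16 and from 8.07 to 9.38 (median 8.64) at E20, and in intestine from 10.63 to 10.97 (median 10.73) and from 9.22 to 9.86 (median 9.70). Both organs separated by age. Ccne1 was 4.92-fold lower in lung (log2 -2.30, SE 0.10, adjusted p = 6.66e-23) and 2.16-fold lower in intestine (log2 -1.11, SE 0.10, adjusted p = 4.48e-13). With the intestine E20 arrays of higher upper quartile alone, the intestine change was -0.97 and not called. Mcm10, a scaffold at the starting fork, ranged from 9.46 to 9.93 (median 9.61) in lung E16, 7.34 to 8.05 (median 7.71) in lung E20, 8.91 to 9.17 (median 9.09) in intestine E16 and 8.02 to 8.48 (median 8.30) in intestine E20. Its lung E16 arrays stood above all others. Mcm10 changed by -1.95 in lung (SE 0.070, adjusted p = 9.8e-26) and by -0.82 in intestine (SE 0.070, adjusted p = 1.08e-13).

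GINS, the complex of 4 proteins that joins the ring with Cdc45, had 3 measured subunits. Gins1 ranged in lung from 10.05 to 10.39 (median 10.21) at E16 and from 8.72 to 9.34 (median 8.83) at E20, and in intestine from 10.20 to 10.52 (median 10.34) and from 9.02 to 9.43 (median 9.26). The ages were apart in both organs. The fall was 2.42-fold in lung (log2 -1.27, SE 0.067, adjusted p = 3.25e-20) and 2.16-fold in intestine (log2 -1.11, SE 0.067, adjusted p = 1.54e-18), and the difference between organs was -0.16 (95% interval -0.35 to 0.03, adjusted p = 0.136). Gins4 ranged in lung from 10.59 to 10.97 (median 10.82) at E16 and from 9.17 to 9.90 (median 9.35) at E20, and in intestine from 10.73 to 11.11 (median 10.93) and from 9.77 to 10.25 (median 10.02). It was called in lung (log2 -1.39, SE 0.077, adjusted p = 1.35e-19) and fell short of 2-fold in intestine (log2 -0.93, adjusted p = 2.87e-14). Gins3 changed by -0.65 in lung and -0.81 in intestine, and the second E cyclin, Ccne2, by -1.07 (called) and -0.65. With its probe sets averaged, Ccne2 changed by -0.64 in lung and was not called. Cdc45, which holds the active helicase together, changed by -0.27 in lung and -0.29 in intestine on the probe set used.

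**Figure D2:**
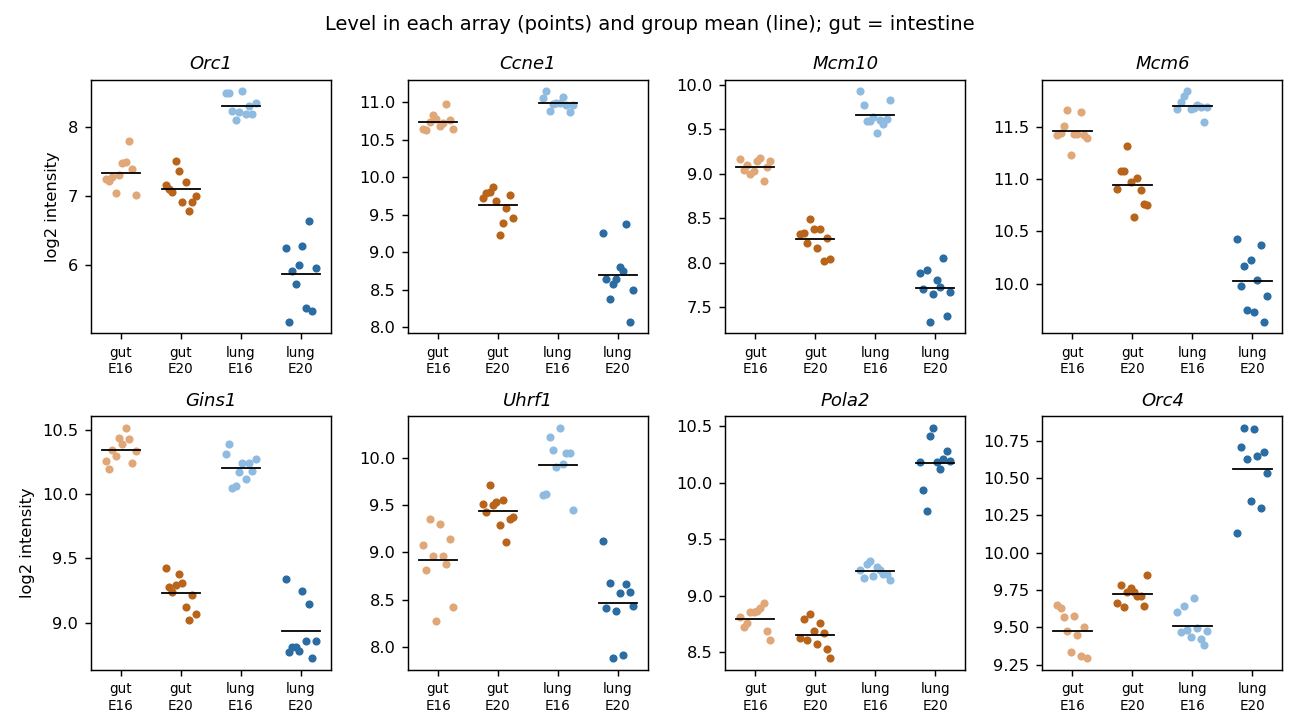
Log2 intensity of 8 genes in each array (points, in order of replicate number) with the group mean (line), for intestine (gut) and lung at E16 and E20. Orc1, Ccne1, Mcm10 and Mcm6 drop furthest in lung, Gins1 drops in both organs, Uhrf1 goes up in intestine and down in lung, and Pola2 and Orc4 go up in lung.

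Fork genes formed the largest group, with 18 members, of which 14 were called lower in lung (background 4.63%) and 0 in intestine (background 6.26%). All 5 subunits of the clamp loader were called in lung, at -1.18 for Rfc1, -1.11 for Rfc2, -1.35 for Rfc3, -1.57 for Rfc4 and -1.04 for Rfc5. With probe sets averaged, Rfc1 changed by -0.63 and was not called. Rfc4 ranged in lung from 11.20 to 11.78 (median 11.60) at E16 and from 9.56 to 10.77 (median 9.75) at E20, and in intestine from 11.33 to 11.79 (median 11.59) and from 10.26 to 10.93 (median 10.67). Ages did not overlap in either organ, although lung E20 was spread widely. Rfc4 was 2.97-fold lower in lung (SE 0.12 on the log2 scale, adjusted p = 3.24e-15) and 1.94-fold lower in intestine (log2 -0.96, adjusted p = 2.1e-09). Rfc3 ranged in lung from 11.12 to 11.43 (median 11.25) at E16 and from 9.61 to 10.48 (median 9.76) at E20, and in intestine from 11.11 to 11.57 (median 11.33) and from 10.24 to 10.76 (median 10.45). The 2 ages were apart in both organs (adjusted p = 2.22e-17 in lung and 5.93e-11 in intestine, where the change was -0.81).

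Pole, the catalytic subunit of the polymerase that copies the leading strand, ranged in lung from 9.13 to 9.56 (median 9.40) at E16 and from 7.65 to 8.28 (median 8.02) at E20, and in intestine from 9.10 to 9.34 (median 9.18) and from 8.64 to 9.03 (median 8.78). At E20 every lung array was below every intestine array. The change was -1.38 in lung (SE 0.061, adjusted p = 9.55e-23) and -0.39 in intestine (SE 0.061, adjusted p = 3.95e-07). Prim1, the primase subunit that makes the RNA primers, ranged in lung from 11.52 to 12.07 (median 11.76) at E16 and from 9.46 to 11.20 (median 10.32) at E20, and in intestine from 11.50 to 11.79 (median 11.75) and from 10.31 to 11.44 (median 10.94). E20 arrays were spread more widely than E16 arrays in both organs, yet stayed below them. The lung change was -1.34 (SE 0.15, adjusted p = 2.36e-10) and the intestine change -0.77 (SE 0.15, adjusted p = 2.03e-05).

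The other fork genes called lower in lung were Pola1 (-1.15), Prim2 (-1.03, or -0.99 with log2(intensity + 32)), Pold1 (-1.07), Rpa2 (-1.13), Rpa3 (-1.28), Fen1 (-1.23) and Lig1 (-1.24). Pold2, an accessory subunit of the lagging-strand polymerase, at -0.9998, Pcna at -0.90 and Rpa1 at -0.82 passed the adjusted p and not the fold minimum. Without the 7 arrays with other tissue, Pcna (-1.02) and Pold2 (-1.06) were called. Pcna, the clamp itself, ranged in lung from 13.21 to 13.32 (median 13.27) at E16 and from 12.12 to 12.69 (median 12.32) at E20. Its intestine arrays ranged from 12.87 to 13.27 (median 13.11) and from 12.42 to 12.83 (median 12.68), so the ages were apart in both organs (intestine change -0.48, adjusted p = 8.49e-09).

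Pola2, the regulatory subunit of the primase-polymerase, did not follow its partners Pola1, Prim1 and Prim2. It ranged in lung from 9.14 to 9.31 (median 9.21) at E16 and from 9.75 to 10.48 (median 10.19) at E20, and in intestine from 8.60 to 8.94 (median 8.83) and from 8.45 to 8.84 (median 8.64). All lung E20 arrays were above all others. In lung it rose 1.95-fold (log2 0.96, SE 0.062, adjusted p = 2.07e-17), short of the fold minimum, and in intestine it changed by -0.15 (adjusted p = 0.0329). A single probe set measured it, so no other on the array could be set beside it.

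Nucleotide supply was represented by 3 genes, all called lower in lung (background 4.63%) and none in intestine (background 6.26%). Tyms, thymidylate synthase, ranged in lung from 9.16 to 9.76 (median 9.53) at E16 and from 7.63 to 8.56 (median 8.03) at E20, and in intestine from 8.66 to 9.29 (median 9.03) and from 7.91 to 8.4999 (median 8.16). It was 2.69-fold lower in lung (log2 -1.43, SE 0.096, adjusted p = 7.94e-17) and 1.78-fold lower in intestine (log2 -0.83, adjusted p = 3.96e-10). Both organs separated by age. Rrm1, the large subunit of ribonucleotide reductase, ranged in lung from 11.83 to 12.16 (median 11.95) at E16 and from 10.31 to 11.16 (median 10.70) at E20, and in intestine from 11.60 to 11.88 (median 11.69) and from 10.999 to 11.41 (median 11.21), again without overlap (log2 changes -1.20, adjusted p = 8.82e-18, and -0.48, adjusted p = 2.87e-07). Tk1, thymidine kinase of dividing cells, ranged in lung from 10.84 to 11.12 (median 10.98) at E16 and from 9.76 to 10.38 (median 9.85) at E20, and in intestine from 10.41 to 10.62 (median 10.51) and from 10.14 to 10.45 (median 10.35). Only its intestine ages overlapped. The changes were -1.01 in lung (SE 0.063, adjusted p = 9.24e-18), which fell below 2-fold under 3 of the alternatives (-0.99 with quantile normalization, -0.99 with log2(intensity + 32) and -0.87 with probe sets averaged), and -0.20 in intestine (adjusted p = 0.00522).

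Among the 3 genes that restore chromatin behind the fork, Uhrf1, which brings the maintenance methyltransferase Dnmt1 to newly copied DNA, moved in opposite directions in the organs. It ranged in lung from 9.45 to 10.31 (median 9.99) at E16 and from 7.88 to 9.12 (median 8.502) at E20, and in intestine from 8.28 to 9.35 (median 8.96) and from 9.11 to 9.71 (median 9.46). Lung ages were apart, and the lowest intestine E20 arrays overlapped the highest at E16. Uhrf1 was 2.74-fold lower in lung at E20 (log2 -1.46, SE 0.13, adjusted p = 3.18e-13) and 1.43-fold higher in intestine (log2 0.51, SE 0.13, adjusted p = 0.000497). Chaf1a, the large subunit of the histone chaperone CAF-1, ranged in lung from 10.03 to 10.28 (median 10.17) at E16 and from 8.60 to 9.18 (median 8.82) at E20, and in intestine from 9.69 to 10.02 (median 9.85) and from 8.87 to 9.42 (median 9.11). It fell by 1.32 in lung (SE 0.061, adjusted p = 3.7e-22) and by 0.73 in intestine (adjusted p = 4.43e-14). Its partner Chaf1b overlapped between ages in both organs, with differences of -0.14 in lung (95% interval -0.32 to 0.04, adjusted p = 0.176) and -0.21 in intestine (adjusted p = 0.0298).

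The change in lung was set against the change in intestine in a single test of their difference. Of the 44 genes, 7 were called lower, so that lung fell by at least 2-fold more (background 8.48%), and 1 was called higher (background 9.13%). The genes were Orc1 (-2.22, dim in lung at E20), Uhrf1 (-1.97), Ccne1 (-1.19), Mcm6 (-1.17), Mcm10 (-1.13), Mcm5 (-1.09) and Cdt1 (-1.07), and, in the other direction, Pola2 (1.11). The call was lost for Pola2 with arrays centred on their medians (0.98) and for Cdt1 with the intestine E20 arrays of low upper quartile alone (-0.95), while Pole, at -0.99, was called under 6 of the alternatives. With the adjusted p alone, 31 had a larger fall in lung (background 30.9%) and 2 the reverse (background 35.3%). The median difference was -0.57, where that of all genes was 0.032. Of the 41 genes with estimates below 0 in both organs, the lung fall was at least 1.5 times the intestine fall in 29. The share of all genes for this count was not computed.

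In 11 genes the difference between organs did not pass: Orc2, Orc3, Orc5 and Orc6, Cdc45, Gins1 and Gins3, Prim2, Rpa1 and Rpa2, and Chaf1b. For Orc6 and Cdc45 this holds on the probe set used. On their other probe sets Orc6 changed by -1.38 and -2.04 in lung against -0.55 and -0.68 in intestine, and Cdc45 by -1.27 and -1.42 against -0.67 and -0.57 on the pair called in lung, and all 4 differences passed. The remaining, dim probe set of Cdc45 differed the other way (0.29 in lung, -0.14 in intestine). Rpa1, the large subunit of the single-strand binding protein, is an example, with changes of -0.82 in lung and -0.84 in intestine and a difference of 0.02 (95% interval -0.15 to 0.19, adjusted p = 0.846). In contrast, all 6 MCM subunits, Cdt1 and all 5 clamp loader subunits passed the test with the larger fall in lung. For Rfc1 this turned on the probe set used, since the others changed by -0.47 and -0.25 in lung against -0.40 and -0.33 in intestine, with differences that did not pass (limma adjusted p = 0.469 and 0.519). Ccne2 also passed only on the probe set used, and its other gave a difference of 0.31 (limma adjusted p = 0.0532). Orc4 gave 0.81 on the probe set used and -0.28 on the other, which did not pass (limma adjusted p = 0.108). A dim probe set of Tk1 did not pass either (-0.14, limma adjusted p = 0.102).

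At E16 the organs lay close together in these genes. Lung exceeded intestine by a median of 0.18 over the 44 genes, where the median of all genes was -0.11. A single gene, Uhrf1 (1.002, SE 0.13, adjusted p = 1.4e-08), was called higher in lung and 0 were called lower (background 5.13% in either direction). The Uhrf1 difference was 0.95 with log2(intensity + 32), 0.97 with array weights and 0.99 without lung E16 replicates 5 and 9, and Orc1, at 0.98, was called with arrays centred (1.13), quantile-normalized (1.13), weighted (1.002), without the 7 arrays (1.08) or without lung E16 replicates 5 and 9 (1.01). By the adjusted p alone limma gave 24 higher (background 23.8%) and 1 lower, Chaf1b (background 40.2%), and by an unadjusted p under 0.05 it gave 27 and 3. Lung arrays lay wholly above intestine arrays for 8 genes (Orc1, Mcm5, Mcm10, Pola2, Tk1, Fen1, Uhrf1 and Chaf1a) and wholly below for 0 (background 19.3% in either direction). Taken in either direction, that count was no larger than the share of all genes gives. The share for lung above intestine alone is not given here, so the 8 genes are not compared with it.

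At E20 the order was turned, with a median of -0.33 (all genes -0.089). Orc1 (-1.24, SE 0.13, adjusted p = 1.28e-11; -0.90 with log2(intensity + 32), not called) was called lower in lung (background 8.21%) and Pola2 (1.53, SE 0.062, adjusted p = 1.87e-24) higher (background 7.91%). Without the 7 arrays with other tissue, 5 were called lower (Orc1, Uhrf1 at -1.12, Ccne1 at -1.11, Cdt1 at -1.03 and Mcm6 at -1.01). The adjusted p alone gave 29 lower (background 42.5%) and 6 higher (background 30.6%), the latter being Orc2, Orc3, Orc4, Gins3, Rpa1 and Pola2. Lung arrays lay wholly below intestine arrays for 8 genes (Orc1, Cdt1, Mcm2, Mcm5, Mcm6, Pold1, Pole and Rfc5, background 18.6%) and wholly above for 3 (Orc3, Orc4 and Pola2, background 15.5%). Neither count was larger than the share of all genes gives.

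Several probe sets measured 11 of the 44 genes, which gave 60 in all. When each was fitted on its own, 57 of the 60 were lower in lung and 40 were called lower (background 3.79% of 31042 probe sets), with 1 called higher (background 5.24%). In intestine 58 were lower, with 2 called lower (background 5.55%) and 0 higher (background 6.25%). Besides Orc4, the call in lung differed between probe sets of 5 genes. Cdc45 changed by -0.27 on the one used and by -1.27 and -1.42 on a further pair, both called, while the last, a dim one, gave 0.29. Orc6 changed by -0.995 on the one used and by -1.38 and -2.04 on the others, both called. Conversely, Rfc1 was called at -1.18 on the one used and changed by -0.47 and -0.25 on the others. Ccne2 (-1.07, other -0.21) and Tk1 (-1.01, others -1.13 and -0.46) also held an uncalled probe set. The count of 32 thus includes genes that another probe set would not call, and leaves out Cdc45 and Orc6.

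**Figure D3:**
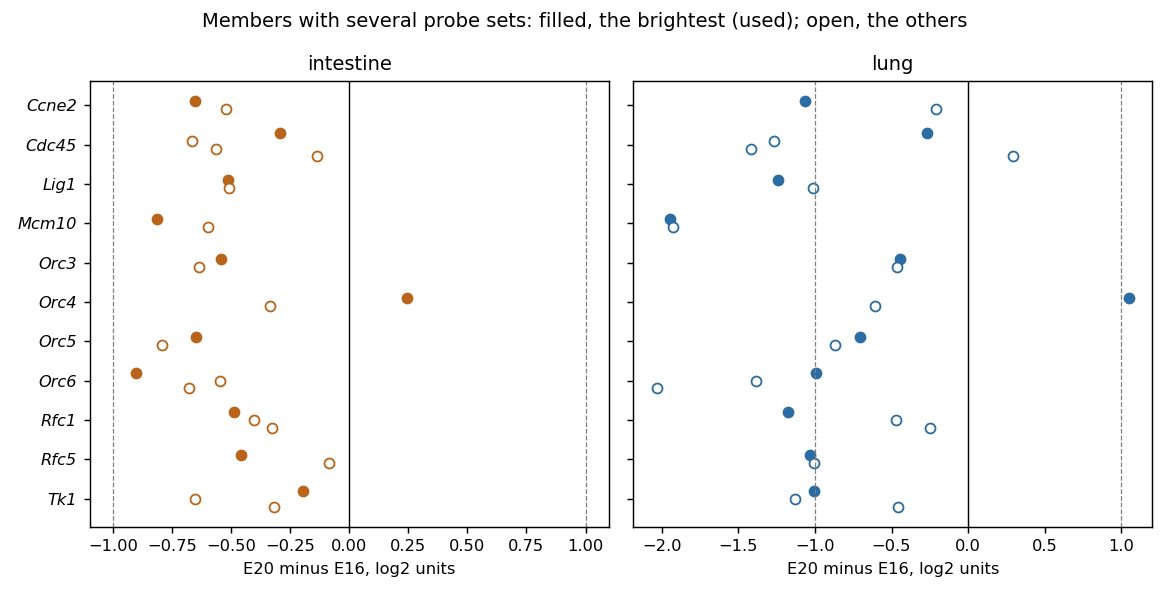
Change from E16 to E20, in log2 units, of each probe set of the 11 genes that have several, in intestine (left) and lung (right). Filled points are the brightest, which stand for the gene, open points the others, and dashed lines mark 2-fold. Orc4 has a point on each side of 0, and the open points of Cdc45 and Orc6 reach past 2-fold in lung where the filled ones do not.

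Single arrays were compared by their median over the 44 genes. This median ran from 10.30 to 10.45 in intestine E16 and 9.65 to 9.84 in intestine E20, and from 10.41 to 10.61 in lung E16 and 9.24 to 9.75 in lung E20. The ages were apart in each organ, and lung E20 was the most spread group. Lung E20 replicates 1, 6 and 8 stood highest, at 9.75, 9.59 and 9.72, against 9.24 to 9.48 in the other 7. Their liver marker medians (11 genes) were 8.66, 6.62 and 8.67 against 6.17 to 6.70, and their mesothelium medians (5 genes) 9.001, 10.32 and 9.17 against 8.52 to 9.39. Whether these transcripts account for the higher replication level was not tested. Intestine E20 arrays fell into sets of 5 by upper quartile of intensity, and the members' median was 9.65 to 9.74 in the set with lower quartiles (625 to 630) and 9.72 to 9.84 in the other (640 to 646). The lower set was replicates 6 to 10 and the other replicates 1 to 5, and the cause of the split was not tested. With the first set alone 7 genes were called lower in intestine, and with the second 1.

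**Figure D4:**
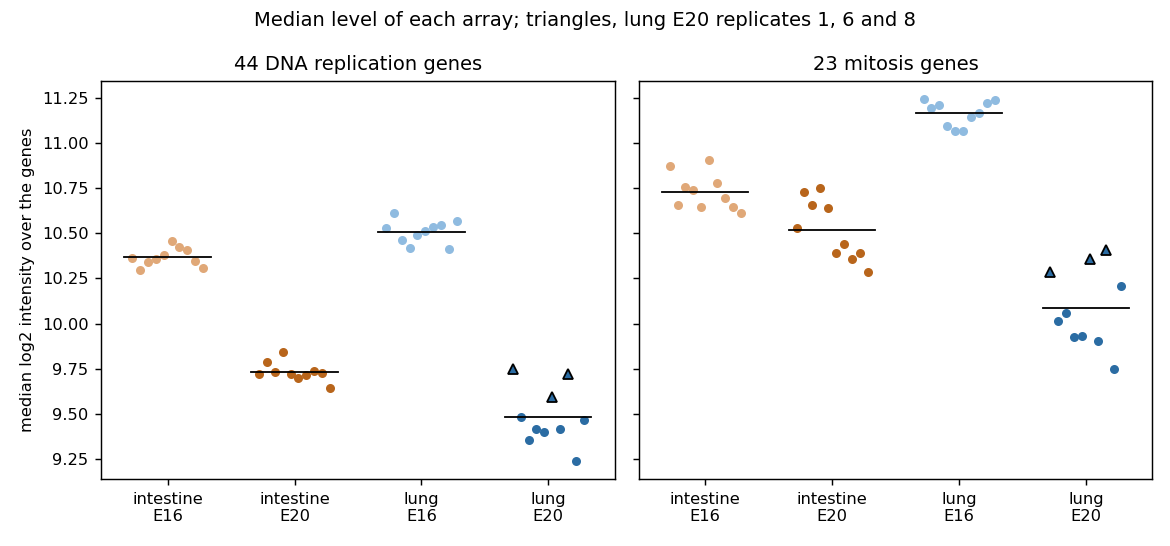
Median log2 intensity of each array (points, in order of replicate number) over the 44 replication genes and over 23 mitosis genes, with group means as lines. Triangles mark lung E20 replicates 1, 6 and 8, which hold more liver or mesothelium transcripts and lie at the top of their group. Replication genes separate the ages in both organs, and mitosis genes do so in lung.

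The rest of the pathway was read from lists of genes other than the 44. For these lists, the backgrounds of calls are 4.63% lower and 7.15% higher in lung, and 6.26% and 8.79% in intestine. By the adjusted p alone they are 33.7% and 33.0% in lung, and 41.9% and 29.5% in intestine. In lists this short, a count of 0 or 1 called genes cannot be told from those shares. Of 24 further fork and origin genes, 12 were called lower and 1 higher in lung, and 3 lower and 1 higher in intestine. Dscc1, which belongs to an alternative clamp loader, changed by -2.10 in lung and -0.97 in intestine, and Pole2, the partner of Pole, by -1.69 and -0.66. Wdhd1, a fork adaptor, changed by -1.56 and -0.76. Gmnn, geminin, the inhibitor of Cdt1, was called in both organs (-1.54 and -1.11), though with its probe sets averaged neither change reached 2-fold (-0.91 and -0.67). Pold4, the smallest subunit of the lagging-strand polymerase, rose in both organs, by 1.56 in lung and 1.48 in intestine, with no overlap between ages in either.

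Of 12 further genes of nucleotide supply, 5 were called lower in lung, and 1 lower and 1 higher in intestine. Cad, which starts pyrimidine synthesis, changed by -1.37 in lung and -0.66 in intestine, and Dut, which keeps uracil out of DNA, by -1.12 and -0.76. Dctd, which deaminates dCMP, was called in both organs (-1.27 and -1.32). The one-carbon enzyme Shmt1 rose in intestine (1.55) and changed by -0.49 in lung, while its mitochondrial relative Shmt2 was called lower in lung (-1.09). Of 11 genes of chromatin assembly and maintenance methylation, 6 were called lower in lung and 0 in intestine, where limma passed 8 lower and 1 higher by the adjusted p alone. Hells, a remodeller needed for methylation, changed by -1.72 in lung and -0.52 in intestine, and Dnmt1 itself by -1.15 and -0.70. Nasp, a histone chaperone, changed by -1.71 and -0.93, and Hat1, which acetylates new histone H4, by -1.19 and -0.65. Supt16h, of the FACT complex, was called in lung (-1.16), and its intestine difference of -0.06 did not pass.

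Checkpoint and repair genes, 18 in number, had 11 called lower in lung and 1 in intestine. Exo1, an exonuclease of mismatch repair and resection, fell by 2.54 in lung, from arrays of 9.76 to 10.36 at E16 to arrays of 6.60 to 7.92 at E20, and by 0.56 in intestine. Chek1, the kinase of the replication checkpoint, was called in both organs (-1.86 and -1.17). Rad54l, of recombination repair, changed by -1.81 and -0.90, Fancd2, of crosslink repair, by -1.35 and -0.40, and Ung, which removes uracil, by -1.30 and -0.15. Of 23 mitosis genes, 15 were called lower in lung (median -1.20), among them Ttk (-1.72) and Bub1b (-1.65) of the spindle checkpoint, Kif20a (-1.59), Cenpa (-1.46) and Nuf2 (-1.45). In intestine 0 were called by limma, 13 passed lower and 1 higher by the adjusted p alone and equally by the unadjusted p, and the median was -0.19.

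Regulators of S-phase entry moved less evenly. Of 22 measured, 4 were called lower in lung (background 4.63%). In intestine 1 was called lower (background 6.26%) and 1 higher (background 8.79%), no more than those shares give. Of the activator E2Fs, E2f3 was listed and not measured. E2f1 ranged in intestine from 9.05 to 9.73 (median 9.33) at E16 and from 8.34 to 8.88 (median 8.61) at E20. Its lung arrays ranged from 8.95 to 9.55 (median 9.36) and from 8.83 to 9.47 (median 9.23). Only the intestine ages were apart. E2f1 changed by -0.74 in intestine (adjusted p = 4.06e-10) and by -0.05 in lung, which did not pass (adjusted p = 0.59). E2f2 changed by -0.9999 in intestine, just short of 2-fold, and its lung difference of -0.23 did not pass.

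E2f8, an atypical E2F that represses E2F targets in late S phase, ranged in lung from 9.61 to 9.95 (median 9.78) at E16 and from 7.54 to 8.78 (median 8.24) at E20, and in intestine from 8.76 to 9.01 (median 8.90) and from 9.04 to 9.64 (median 9.42). The ages were apart in both organs, in opposite directions. It fell by 1.54 in lung (adjusted p = 3.49e-18) and rose by 0.47 in intestine (adjusted p = 2.26e-05), and the difference of -2.01 was called (adjusted p = 5.6e-17). E2f7, its relative, changed by -1.20 in lung (called) and -0.52 in intestine. The repressor E2Fs passed by the adjusted p without reaching 2-fold: E2f4 by -0.37 in lung and 0.22 in intestine, E2f5 by -0.87 and -0.74, and E2f6 by -0.76 and -0.72. Tfdp2, an E2F partner, was called lower in intestine (-1.41; lung -0.73), and Rb1, the retinoblastoma protein, higher there (1.16; lung 0.76).

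Cyclin A2 (Ccna2), which drives S phase onward, was called in lung (-1.53), whereas its intestine difference of -0.15 did not pass. The D cyclins, which carry growth signals to Rb, were not called in either organ. Ccnd1 changed by -0.73 in lung and -0.53 in intestine and Ccnd3 by -0.18 and -0.40, all past the adjusted p, while Ccnd2 (0.02 and 0.06) did not pass in either organ.

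Among 14 inhibitors of the cycle and genes of quiescence, 6 were called higher in lung and 0 lower, and 1 was called higher and 1 lower in intestine. By the adjusted p alone, and by the unadjusted p, limma placed 2 of them lower and 10 higher in lung, and 6 lower and 4 higher in intestine. Of all genes, 33.7% passed lower and 33.0% higher in lung by the adjusted p, and 41.9% and 29.5% in intestine. The intestine counts were near those shares. Cdkn1a, p21, which inhibits the cyclin E kinase and binds Pcna, ranged in lung from 7.38 to 8.08 (median 7.67) at E16 and from 9.09 to 10.52 (median 9.96) at E20, and in intestine from 7.36 to 7.79 (median 7.69) and from 8.72 to 9.42 (median 8.95). The ages were apart in both organs. It rose 4.46-fold in lung (log2 2.16, SE 0.14, adjusted p = 1.25e-17) and 2.52-fold in intestine (log2 1.33, SE 0.14, adjusted p = 1.64e-11), the latter short of 2-fold with its probe sets averaged (log2 0.69). Cdkn1b, p27, changed by 0.94 in lung and 0.14 in intestine, and Cdkn1c, p57, by -0.49 and -0.19, all past the adjusted p and none called.

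Klf9, a transcription factor induced by glucocorticoids, ranged in lung from 6.97 to 7.43 (median 7.25) at E16 and from 9.68 to 11.22 (median 10.37) at E20, and in intestine from 7.99 to 8.55 (median 8.23) and from 8.005 to 8.41 (median 8.16). It rose 9.35-fold in lung (log2 3.23, SE 0.12, adjusted p = 1.22e-24), and its intestine difference of -0.09 did not pass (adjusted p = 0.554). Klf4, a factor of differentiated epithelium, changed by 1.39 in lung (called) and 0.93 in intestine. Txnip, the thioredoxin inhibitor, rose in lung (1.55) with an intestine difference of -0.16 that did not pass. Gas6, a growth-arrest gene that encodes a receptor ligand, was called higher in lung (1.28) on the probe set used, but with its probe sets averaged the lung difference was -0.014 and did not pass (adjusted p = 0.816).

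**Figure D5:**
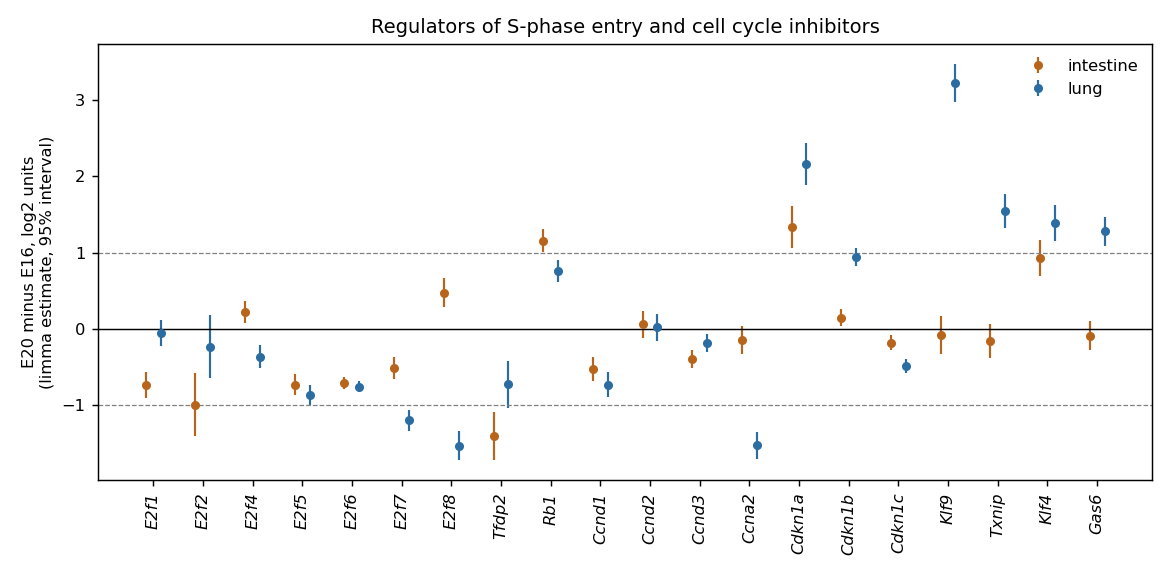
Change from E16 to E20, in log2 units with 95% intervals, of E2F genes and partners, Rb1, cyclins and cell cycle inhibitors in intestine (brown) and lung (blue), with dashed lines at 2-fold. E2f8 lies on opposite sides of 0 in the organs, E2f1 is lower in intestine and near 0 in lung, and Cdkn1a is higher in both.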

How the data were processed

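RNA of 40 arrays (4 groups of 10) was compared. The deposited values are linear intensities, for which the submitters' processing notes name RMA with no version. The sources used here do not say whether both organs were normalized together. The planned test assumed log2 values, so log2 was taken here of the deposited intensities. Probe sets with 1 gene symbol (20826 of 31099, with 436 naming several, 9831 none and 6 named controls left out) gave 14217 genes. The rat GRCr8 table held all 44 members by gene ID. Means of the 4 groups were fitted with limma 3.58.1 (R 4.3.3, lmFit and eBayes, two-sided) to all arrays, and 5 contrasts were taken. The fit was tested on simulated data. SE and intervals come from this fit. The number of arrays limits the precision. Members and lists were chosen with earlier results of these data known. Full values were given for up to 4 called members of a role with the largest change and those of opposite sign. Of other lists, up to 5 called genes were named, with every measured E2f, Ccnd and Cdkn1 gene. Pcna, Chaf1b and Rpa1 were added after their values were seen. Alternatives covered scaling, probe sets, dim genes, the fold minimum, array weights, arrays left out, the arrays fitted and a replicate block. Replicate numbers were checked for pairing by the correlation of deviations between same-numbered arrays of the 2 organs. It averaged 0.27 at E16 and 0.028 at E20, against -0.030 and -0.0036 between different numbers. It exceeded 0.1 in 7 and 4 of 10 pairs. A sex-linked transcript matched between the organs in 8 of 9 settled numbers at E16 and 4 of 10 at E20. These values lean towards pairs at E16 and not at E20. The labels state no pairing, so the main fit used none, and the replicate block was an alternative.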

Additional observations from a re-analysis of the deposited data

Results flagged for a closer look

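In 5 cases a single array stood apart from the other 9 of their group. It was the highest each time: Orc3 in lung E16 replicate 2 (10.05, next 9.84), Mcm2 in intestine E16 replicate 4 (11.35, next 11.22), Pold1 in intestine E20 replicate 4 (9.67, next 9.51), Rfc1 in lung E20 replicate 1 (10.14, next 9.49) and Rfc2 in intestine E16 replicate 8 (11.18, next 10.87). The gap to the next array exceeded the 95% critical value of Dixon's test for 10 samples. In all 176 combinations of gene and group were tested and 5 stood out, where chance gives about 1 in 20.

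For 8 genes the change in lung differed from that in intestine by at least 2-fold in the test of the difference itself (limma, adjusted over all genes, 10 arrays in each of the 4 groups). Orc1 differed by -2.22 (adjusted p = 2.34e-14), Uhrf1 by -1.97 (adjusted p = 1.48e-12), Ccne1 by -1.19 (adjusted p = 1.25e-09) and Mcm6 by -1.17 (adjusted p = 8.19e-12). Mcm10 differed by -1.13 (adjusted p = 3.22e-13), Mcm5 by -1.09 (adjusted p = 6.72e-13) and Cdt1 by -1.07 (adjusted p = 7.09e-11). Pola2 differed by 1.11 in the other direction (adjusted p = 1.55e-14). Uhrf1 and Pola2 had opposite signs in the 2 organs.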

How the results depend on the processing

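The count of 32 replication genes called lower in lung ran from 30 to 41 over the alternatives, and in these no called change of a replication gene turned its sign. Other probe sets taken alone were not among them, and that of Orc4 had the opposite sign in lung (-0.61). Without a fold minimum, 41 were lower and 2 higher in intestine, 2 higher in lung, 31 and 2 in the difference between organs, 1 and 24 at E16, and 29 and 6 at E20. With limma's treat against 1.2-fold, 33 were lower in intestine, 2 higher in lung, 24 and 2 in the difference, 6 higher at E16, and 19 and 2 at E20. Apart from the rule without a fold minimum, shares of all genes are not given for the alternatives. Their counts therefore show only how the main counts shift. With arrays centred on their medians, 0 were called higher in lung, 0 higher in the difference and 2 higher at E16, as the median of all genes at E16 moved from -0.11 to 0.044. Averaged probe sets left 0 called higher in lung, and Gas6 turned to -0.014. Quantile normalization gave 2 higher at E16. With log2(intensity + 32), 0 were higher at E16 and 0 lower at E20, with bright genes alone 0 lower at E20, and with array weights 3 lower at E20. Without the 7 arrays (intestine E16 replicates 6, 8 and 9, intestine E20 replicate 9, lung E20 replicates 1, 6 and 8), 2 were higher at E16 and 5 lower at E20. The split of intestine E20 arrays by upper quartile, chosen after seeing the data, gave 7 and 1 lower in intestine and, with the higher set, 5 lower at E20. The causes were not tested, beyond what the construction of an alternative shows. The replicate block gave the same counts as no block, with 2 lower in intestine, 32 lower and 1 higher in lung, 7 and 1 in the difference, 1 higher at E16 and 1 lower and 1 higher at E20. It changed no call of a replication gene. With groups of equal size the block leaves each estimate as it was, so it could change a call only through the adjusted p. For the age changes it joined same-numbered arrays of E16 and E20, which are different embryos. The unchanged counts are therefore no test of pairing. Leaving out lung E16 replicates 5 and 9, also chosen after seeing the data, gave 8 lower and 1 higher in the difference and 1 higher at E16. Dim probe sets such as Orc1 have poorly measured folds, and no detection limit was computed.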
